A study of Mus musculus with 4 samples.

Results

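The nuclei compared here are the fetal and the adult luminal-like nuclei of the mouse mammary epithelium, profiled for open chromatin by single-nucleus ATAC-seq. They were chosen by the cluster numbers that the authors deposited: class 9 in the 2 fetal libraries, and class 3 or 7 in the 2 adult libraries. That gave 1037 fetal nuclei (385 in replicate 1 and 652 in replicate 2) and 1726 adult nuclei (921 and 805), out of 7846 nuclei in all. Fetal class 5 was left out. Per the labels, all cells came from CD1 mice, an outbred strain, and had been sorted as EpCAM-positive and lineage-negative. Fetal cells were taken at embryonic day 18 and adult cells at 8 weeks, with 2 biological replicates per stage. The labels call the glands wild type and name no treatment, and neither sex nor the number of animals pooled per replicate is given. The title of the series names cell-state regulators and lineage relations in mammary development as its subject.

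The mammary epithelium has an inner luminal layer, which makes milk, and an outer basal layer, which contracts and pushes the milk out. Luminal progenitors are luminal cells that lack hormone receptors and divide to supply the milk-secreting alveoli. In the adult they are known for the receptor tyrosine kinase Kit, the ETS factor Elf5, which directs alveolar differentiation, and genes of innate defence. Shortly before birth the gland is a small branched tree, whose cells can carry luminal and basal features together. In ATAC-seq the Tn5 transposase inserts into open chromatin, so more reads over a region mean that it was open in more nuclei or on more chromosome copies, which these counts cannot separate.

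The deposited classes have no names, so their identity was checked against marker genes, using reads over the gene span with 2000 bases on either side. Of 7 luminal progenitor markers, 5 lay above the median of the 14 classes in class 9, 7 in class 3 and 7 in class 7. The summed level of those markers was highest in class 7, then class 3, then class 9. Of 7 luminal keratin and junction markers, 5, 6 and 7 were above the median in classes 9, 3 and 7. Of 8 basal markers, class 9 had 4 above the median, class 3 had 4 and class 7 had 1. By summed level, classes 9, 3 and 7 ranked 6, 4 and 1 of 14 on the luminal list. On the basal list they ranked 6, 7 and 10, so class 9 had the same rank on both. The fetal class was therefore luminal progenitor-like by more than 3 markers, but its level of these markers was below that of both adult classes, and classes 9 and 3 had more basal markers above the median than class 7. The authors formed the classes from the same reads, so the choice of nuclei is not independent of accessibility. Stage and the makeup of the classes therefore cannot be told apart for a gene that separates the classes.

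Member nuclei held 2835995 and 6657005 reads in fetal replicates 1 and 2, and 4693222 and 5142496 reads in adult replicates 1 and 2. The median per nucleus stood at 5807 and 8382 reads for fetal and 4204 and 5232 for adult replicates, so the fetal nuclei were deeper. Adult class 3 supplied 246 of 921 and 343 of 805 nuclei, and class 7 the rest. No cell barcode was shared between libraries. Few nuclei crossed the stages: the fetal libraries held 9 nuclei of class 3 or 7 and the adult libraries held 19 of class 9, and all were left out. Promoter regions took 24.4% and 22.5% of the fetal reads and 25.4% and 23.7% of the adult reads. Distal regions took 41.1% and 41.2% of the fetal reads and 42.5% and 39.9% of the adult reads. Both ranges overlapped between stages. With 2 libraries against 2, an exact permutation test cannot go below a p of 1 in 3, so these shares were not tested. Markers of other cell types were read at both stages. The summed level of 8 stromal markers was 201 and 220 CPM (reads scaled to library size) in fetal and 182 and 176 in adult libraries, with 1 of 8 called (Col6a3, higher in fetal). For the 6 tested of 7 immune markers it was 78.5 and 66.6 in fetal and 79.3 and 85.7 in adult, with 1 called (Csf1r, higher in adult). For 6 endothelial markers 0 of 5 tested were called. Of 6 tested epidermal markers 1 was called higher in fetal and 1 higher in adult. The summed level of these 6 was 164 and 155 CPM in fetal and 205 and 200.04 in adult libraries, without overlap. Of all gene spans 15.8% were called in either direction. No marker on these lists was without a read, and the part of other cells in the results below was not tested.

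Distal regions were called more often than promoter regions. Of 50781 distal regions that averaged 10 or more reads a library, 11066 (21.8%) differed between the stages at an adjusted p under 0.05 in the quasi-likelihood test of edgeR. Of these, 5022 (9.89%) were more open in fetal and 6044 (11.9%) more open in adult nuclei. The median size of a called difference was 4.03-fold. Of 14767 promoter regions, 1321 (8.95%) were called, 638 (4.32%) higher in fetal and 683 (4.63%) higher in adult, at a median of 2.55-fold. A typical uncalled promoter region had 61.8 reads per library and a typical uncalled distal region 18.5. The part of depth in these shares was not tested. Among 17376 gene spans, 2740 (15.8%) were called, 1343 (7.73%) higher in fetal and 1397 (8.04%) higher in adult, with a median difference of 1.70-fold. The median sizes cover called features only. They are not comparable between distal regions, promoter regions and gene spans, which differed in depth and in spread between libraries. Across the 7846 distal regions averaging 50 or more reads, log2 levels correlated at 0.84 between the fetal replicates and 0.85 between the adult replicates, and at 0.30 to 0.33 between stages. Across 8448 promoter regions of that depth the values were 0.88, 0.90 and 0.76 to 0.80. These correlations are descriptions over regions within 4 libraries, and regions are not replicates. In simulated data of the same depth, 0 of 200 distal regions changed 2-fold and 88 of 200 changed 4-fold were called. The simulation changed only 200 of 50781 regions and gave all of them a common spread. With so few changed regions the adjusted p is stricter than in the real data, where 807 distal regions were called at under 2-fold. The simulated counts therefore do not measure how many real differences were found.

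**Figure D1:**
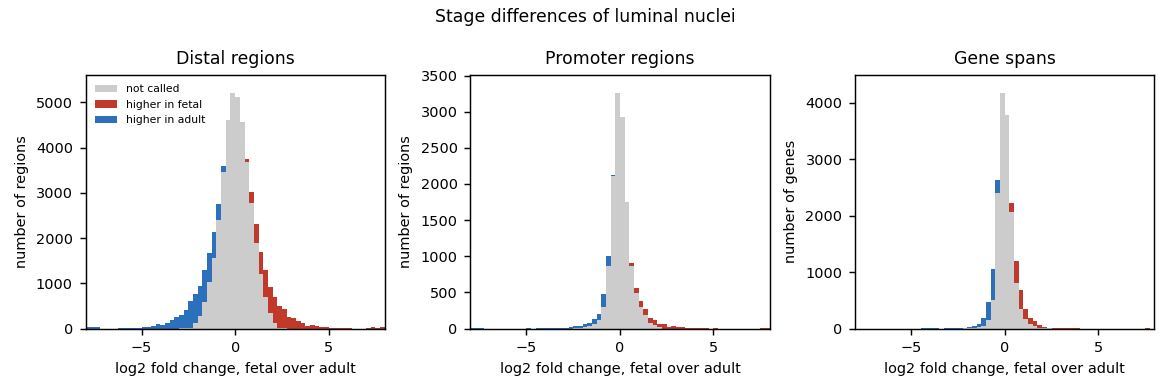
Number of tested distal regions, promoter regions and gene spans (vertical axes) by log2 fold change of fetal class 9 over adult classes 3 and 7 (horizontal axes, values beyond 8 gathered in the last bars). Red and blue parts are called higher in fetal and in adult, grey parts are not called, and the distal panel has the widest tails, with 5022 and 6044 calls.

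The distal regions more open in fetal nuclei lay farther from the RefSeq starts on record. Their median distance to the nearest RefSeq start was 59.0 kb, against 35.3 kb for regions higher in adult and 34.2 kb for regions not called. A distance over 50 kb was found for 54.2%, 40.8% and 40.3% of these groups. The share inside a protein-coding gene was close in all groups, at 52.9%, 55.1% and 55.0%. The distances cover the 4845, 5822 and 38320 regions with a RefSeq start on record for their chromosome, and no test was made over regions. Some genes had no start on record, which can lengthen a distance. A region higher in fetal lay 9.55 kb from Rtp4, with its nearest start on record at 267 kb (Sst). One higher in adult lay 337205 bases from Myc, with its nearest at 1406795 bases (A1bg). The part of missing starts in these distances was not tested.

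Some genes had many called distal regions as their nearest or enclosing gene, and the following were picked after their counts were seen. The shares over all distal regions were 9.89% for fetal and 11.9% for adult. Sema6a, a semaphorin, had 17 of 35 tested regions higher in fetal nuclei and 2 higher in adult. Fgfr2, the fibroblast growth factor receptor needed for mammary bud formation, had 12 of 24, and 1 higher in adult. Tbx3, a T-box factor of the early mammary placode, and Fyn, a Src-family kinase, each had 9 of 14 higher in fetal and 0 higher in adult. In the other direction Pfkfb3, a regulator of glycolysis, had 13 of 17 regions higher in adult nuclei and 0 in fetal. Sash1 had 12 of 20, Trps1, a GATA-type repressor, 15 of 39, and Kit 11 of 22. Sash1 also had 1 and Trps1 3 regions higher in fetal. At Kit no tested region was higher in fetal nuclei. Other loci were mixed: Pde4b had 17 of 52 regions higher in adult and 6 in fetal, Myc 16 of 54 and 5, and Nedd4l 7 of 46 and 10.

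Among the regions with the smallest p-values, a region at chr13:78809278-78810277, 610.4 kb from Nr2f1, which encodes an orphan nuclear receptor, had 78.3 and 67.2 CPM at the fetal stage and 2.49 and 2.43 in adult nuclei. That was 28.4-fold higher in fetal nuclei (log2 difference 4.83 ± 0.42 SE, edgeR adjusted p = 4.4e-08). A region at chr9:49102072-49103071, listed as distal but 0.156 kb from the start of the serine protease gene Tmprss5, had 54.4 and 52.8 CPM against 0.624 and 1.22. Its log2 difference was 5.74 ± 0.55 (SE). Both were picked from called regions whose stages did not overlap, and 61.0% of all tested distal regions had no such overlap.

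A region at chr13:56600825-56601824, 7.76 kb from Tgfbi, an extracellular matrix protein induced by TGF-beta, had 58.7 and 45.9 CPM in fetal and 0 and 1.22 CPM in adult libraries. The adult level rests on 0 and 2 reads, so its log2 difference of 6.22 ranged from 5.24 to 9.30 when 1 library at a time was left out. The regions near Trhde (chr10:114106355-114107354), Rtp4 (chr16:23623770-23624769) and inside Vps45 (chr3:96012486-96013485) were 27.9- to 33.3-fold higher in fetal nuclei. A region inside Tiam1 (chr16:89862793-89863792), which encodes an activator of the GTPase Rac, was 19.1-fold higher, with 76.2 and 68.5 CPM against 1.87 and 5.47. The remaining named region, inside Ccdc192, was 9.81-fold higher. Without adult replicate 1 or 2 the log2 difference ranged from 4.27 to 5.75 at the Trhde region and from 3.62 to 5.12 at the Tiam1 region.

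Among regions open in adult nuclei, one inside Klk14, a kallikrein protease gene, at chr7:43684841-43685840 had 2.18 and 0.926 CPM in fetal and 85.4 and 72.3 CPM in adult libraries. It was 56.8-fold higher in adult nuclei (log2 difference -5.83 ± 0.46 SE, edgeR adjusted p = 3e-08). A region inside Gramd4 at chr15:86121828-86122827 went from 1.09 and 0.926 CPM to 72.3 and 66.9 CPM, which was 66.0-fold. One inside Itpr1, the calcium channel opened by inositol trisphosphate, at chr6:108412613-108413612 was 27.4-fold higher in adult nuclei. One inside Hivep3, a zinc finger factor that binds kappaB-like DNA, at chr4:119966146-119967145 had 4.35 and 5.09 CPM in fetal and 84.8 and 105 CPM in adult libraries. The regions inside Inpp5a (chr7:139538052-139539051), Appl2 (chr10:83644680-83645679) and Abhd2 (chr7:79285031-79286030), and one 136 kb from Rab10 (chr12:3110154-3111153), were 7.54- to 17.6-fold higher in adult. All 16 named distal regions kept their call under every alternative that tested them, including each adult class alone. The fold at the Klk14 and Itpr1 regions rests on 4 and 9 fetal reads, and without fetal replicate 2 their log2 differences were -5.01 and -4.11. In the authors' deposited Cicero table, which scores how often pairs of regions are open together, 14 of these 16 regions had a positive score with a promoter region. The highest score of each ran from 0.052 to 0.507.

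The promoter regions with the smallest p-values belonged to genes of varied roles on both sides. The promoter region at chr11:7213261-7214260 holds the start of Igfbp3, which encodes a binding protein of insulin-like growth factors. It had 72.1 and 77.2 CPM in fetal and 8.64 and 10.9 CPM in adult libraries, a 7.58-fold difference (log2 difference 2.92 ± 0.37 SE, edgeR adjusted p = 1.4e-09). The named promoter regions, too, were picked from called ones without overlap between stages, and 51.4% of all tested promoter regions had none. Epha5, an ephrin receptor, had 85.3 and 81.9 CPM against 12.1 and 21.0 at chr5:84416820-84417819. Celsr1, a planar polarity cadherin, had 138 and 155 CPM against 44.9 and 22.7 at chr15:86033564-86034563 and, like Brinp2, Cldn9, Foxs1, Trf, C2 and Cfb, has a region that holds an annotated end of its span rather than a RefSeq start. Ak1, the cytosolic adenylate kinase, was 8.02-fold higher in fetal nuclei (chr2:32620880-32621879). Brinp2, Celf6 and Prrg3 were 4.52- to 8.38-fold higher. The tight-junction gene Cldn9 was 14.4-fold higher, with 0 reads in adult replicate 1, and was not called by DESeq2 (adjusted p = 0.31).

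On the adult side, the promoter region at chr17:57227507-57228506 holds the start of C3, the central complement protein, with 2.94 and 17.5 CPM in fetal and 92.4 and 70.7 CPM in adult libraries. The fetal replicates differed strongly from each other there. The log2 difference was -2.71 ± 0.36 (SE, edgeR adjusted p = 5.1e-09), ranged from -4.72 to -2.21 without 1 library, and was not called by DESeq2 (adjusted p = 0.070). A listed promoter region (chr17:34862129-34863128) holds a span end of each of the complement genes C2 and Cfb, but no RefSeq start on record. It had 0 and 4.03 CPM in fetal and 51.8 and 53.04 CPM in adult libraries. Trf, the iron carrier transferrin, had 4.41 and 8.73 CPM against 81.2 and 69.9 at chr9:103230161-103231160. Herc6, an interferon-induced ubiquitin ligase, was 5.59-fold higher in adult nuclei (chr6:57580599-57581598). Ddo, which oxidises D-aspartate, had 11.8 and 10.1 CPM against 78.6 and 120 (chr10:40629316-40630315). 1700014D04Rik was 6.83-fold and Klk1b11 29.1-fold higher, the latter on 3 fetal reads. The region of the forkhead gene Foxs1 (chr2:152931081-152932080) had 0 reads in both fetal replicates, with 58 and 54 in adult replicates, so it was at least 34.5-fold higher in adult nuclei when set against 3 reads over the fetal group. Without 1 library the log2 difference ranged from 2.89 to 8.82 at Cldn9, from 1.74 to 2.77 at Celf6 and from 2.62 to 3.71 at Prrg3. It ranged from -8.72 to -3.67 at C2 and Cfb, from -4.04 to -3.09 at Trf and from -8.43 to -4.34 at Klk1b11.

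The windows around these starts are shown so that the letters of strongly differing promoters can be read. RefSeq (GRCm38.p6) gives 250 bases before and 50 after a start, and 3 windows per direction are printed on the strand of the gene, the first 3 named promoters of each direction that hold a RefSeq start. Capitals mark matches, on either strand, to the letters TTGGCA (NFI), ACAATG (SOX), TGANTCA (AP-1), AGGAAG (ETS), GGGCGG (GC box), TATAAA, and the kappaB consensus. The first 3 were higher in fetal nuclei and the last 3 in adult nuclei.
Igfbp3, chr11:7213874-7214173, minus strand: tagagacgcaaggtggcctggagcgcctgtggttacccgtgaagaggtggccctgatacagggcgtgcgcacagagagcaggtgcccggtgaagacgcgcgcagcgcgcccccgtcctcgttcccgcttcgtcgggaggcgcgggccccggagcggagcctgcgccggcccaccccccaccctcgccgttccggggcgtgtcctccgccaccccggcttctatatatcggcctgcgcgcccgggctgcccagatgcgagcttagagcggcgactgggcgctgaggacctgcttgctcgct
Ak1, chr2:32621508-32621807, plus strand: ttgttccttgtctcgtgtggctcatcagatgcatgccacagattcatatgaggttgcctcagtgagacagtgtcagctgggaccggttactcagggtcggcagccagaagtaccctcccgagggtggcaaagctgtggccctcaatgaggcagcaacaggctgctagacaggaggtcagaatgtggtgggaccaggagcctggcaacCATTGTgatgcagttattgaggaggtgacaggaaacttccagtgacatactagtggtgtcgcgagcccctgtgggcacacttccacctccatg
Celf6, chr9:59578087-59578386, plus strand: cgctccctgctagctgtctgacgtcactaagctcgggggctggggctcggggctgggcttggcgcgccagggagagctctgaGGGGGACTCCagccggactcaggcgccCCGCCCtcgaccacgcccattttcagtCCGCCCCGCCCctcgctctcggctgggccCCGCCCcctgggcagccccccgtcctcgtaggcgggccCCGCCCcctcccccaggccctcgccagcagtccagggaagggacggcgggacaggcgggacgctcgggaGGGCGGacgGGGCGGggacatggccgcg
Ddo, chr10:40629761-40630060, plus strand: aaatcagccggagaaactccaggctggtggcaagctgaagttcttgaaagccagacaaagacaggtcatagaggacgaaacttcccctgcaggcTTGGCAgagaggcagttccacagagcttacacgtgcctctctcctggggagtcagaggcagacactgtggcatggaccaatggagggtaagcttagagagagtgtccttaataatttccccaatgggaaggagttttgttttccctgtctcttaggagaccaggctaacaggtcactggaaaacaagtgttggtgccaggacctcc
1700014D04Rik, chr13:59746822-59747121, minus strand: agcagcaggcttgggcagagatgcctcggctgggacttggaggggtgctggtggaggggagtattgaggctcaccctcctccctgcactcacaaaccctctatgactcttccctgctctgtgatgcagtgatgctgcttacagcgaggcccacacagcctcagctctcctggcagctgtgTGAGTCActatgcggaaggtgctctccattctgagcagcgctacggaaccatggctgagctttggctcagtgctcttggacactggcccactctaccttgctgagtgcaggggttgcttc
C3, chr17:57228087-57228386, minus strand: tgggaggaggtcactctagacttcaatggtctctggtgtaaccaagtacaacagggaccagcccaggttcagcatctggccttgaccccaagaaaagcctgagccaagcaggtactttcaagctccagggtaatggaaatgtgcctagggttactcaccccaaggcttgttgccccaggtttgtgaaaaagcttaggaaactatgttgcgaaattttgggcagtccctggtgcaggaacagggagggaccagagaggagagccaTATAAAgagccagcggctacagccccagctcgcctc

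The windows of Igfbp3 and Celf6 held 37 and 31 CpG dinucleotides at a GC content of 71.7% and 76.7%, and that of Ak1 held 6 at 55.7%. Those of Ddo, 1700014D04Rik and C3 held 3, 5 and 3 CpG at 51.7%, 59.0% and 53.3%. Celf6 had a run of GC boxes and the only kappaB match of the printed windows, and C3 had TATAAA. The Ak1 window thus lay below that of 1700014D04Rik in GC content. Over 319 windows of called fetal promoters and 348 of called adult promoters, the median GC content was 63.3% and 61.0%, against 62.0% for 8091 uncalled ones. KappaB matches were in 12.2%, 12.9% and 10.6% of these windows and in 8.49% of all RefSeq windows. The AP-1 letters were in 7.21%, 8.91% and 4.56%, and in 7.79% of all windows, and the NFI letters in 12.5%, 9.77% and 11.0%, and in 14.1% of all. A match is a description of letters, not a bound site, and a window without one shows only that those letters are missing.

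Many motif scores differed between the stages, and the largest differences were at NF-kB motifs. NF-kB proteins are transcription factors that drive inflammatory and innate defence genes. The authors' chromVAR deviation score of a nucleus says how open the regions with a motif are relative to background regions. The score of the Nfkb1 motif averaged -1.19 and -1.36 over fetal nuclei and 1.41 and 1.41 over adult nuclei, a difference of -2.69 ± 0.07 (SE, limma adjusted p = 7.3e-08). Rel stood at -0.994 and -1.13 against 1.23 and 1.21, and Rela at -0.963 and -1.07 against 1.16 and 1.13. Relb, Nfkb2 and the shared Hivep1, Hivep2 and Hivep3 column differed by -1.66, -1.66 and -1.45. All these motifs read similar DNA, so they are not independent results. Of 388 distinct motif columns, 253 (65.2%) were called, 119 (30.7%) higher in fetal and 134 (34.5%) higher in adult, so a call alone says little and the size of a difference matters more. In 84.3% of the 388 columns the stages did not overlap.

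ETS motifs were also higher in adult nuclei. All 15 distinct columns of the ETS family were lower in fetal nuclei, by 0.285 to 1.44, with a median difference of -0.62. Elf5, the alveolar ETS factor, had scores of 0.189 and 0.312 in fetal and 1.79 and 1.60 in adult libraries, a difference of -1.44 ± 0.08 (SE, limma adjusted p = 5.8e-06). The scores of Elf1, Elf3 and Ehf differed by -1.34, -1.33 and -1.18. All 16 FOX columns and all 6 STAT columns were lower in fetal nuclei, with median differences of -0.72 and -0.40, and so were all 3 CEBP columns. Without adult replicate 1 the counts were 6 of 16 for FOX and 3 of 6 for STAT. Stat5a, the mediator of prolactin signalling, had -0.250 and -0.193 against 0.275 and 0.249. Of 17 nuclear receptor columns, 14 were called lower in fetal nuclei, with Esr1 at -0.59. Of 13 AP-1 columns, 11 were called lower in fetal nuclei, with a median difference of -0.46. Fos had -1.09 and -0.971 against -0.359 and -0.762. In nuclei at or above the median depth 11 AP-1 columns were called as well. The Fos difference there was -0.86, against -0.47 in all member nuclei. Without adult replicate 1 only 2 of the AP-1 columns were called, and against adult class 3 alone 6. The Fos call was lost without fetal replicate 1, without adult replicate 1, against adult class 3 alone, and with limma's intensity trend and robust moderation.

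On the fetal side the largest difference was Nfix, an NFI family factor of developmental timing, with scores of 1.43 and 1.97 in fetal and -0.138 and -0.162 in adult libraries. The difference was 1.85 ± 0.15 (SE, limma adjusted p = 5.1e-05). The shared Nfia and Nfib column and Nfic differed by far less, 0.30 and 0.39, and Nfil3, an unrelated bZIP factor whose name starts alike, was not called. When either adult replicate was left out, 1 of the 4 columns was called. All 12 SOX columns were higher in fetal nuclei, by 0.21 to 0.92. Sox9, a factor of epithelial progenitors, had 0.880 and 1.07 against -0.017 and 0.118. Gata2 and Gata3 differed by 0.82 and 0.60, and 3 of 4 TCF and LEF columns, which read Wnt signalling, were called higher in fetal. Of 13 KLF and Sp columns 10 were higher in fetal nuclei, led by Sp4 at 0.82, and the similar GC-rich motifs Zfp281 and Zfp148 differed by 0.87 and 0.81. Of 7 IRF columns 1 was called, and 0 without either adult replicate. Ctcf, the insulator protein taken as a reference, differed by 0.39 ± 0.11 (SE), with 0.404 and 0.085 in fetal and -0.272 and -0.028 in adult libraries. Its call was lost without fetal replicate 1, without either adult replicate, and with limma's intensity trend and robust moderation (limma adjusted p = 0.064). The 6 largest motif differences in each direction kept their calls under every alternative.

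**Figure D2:**
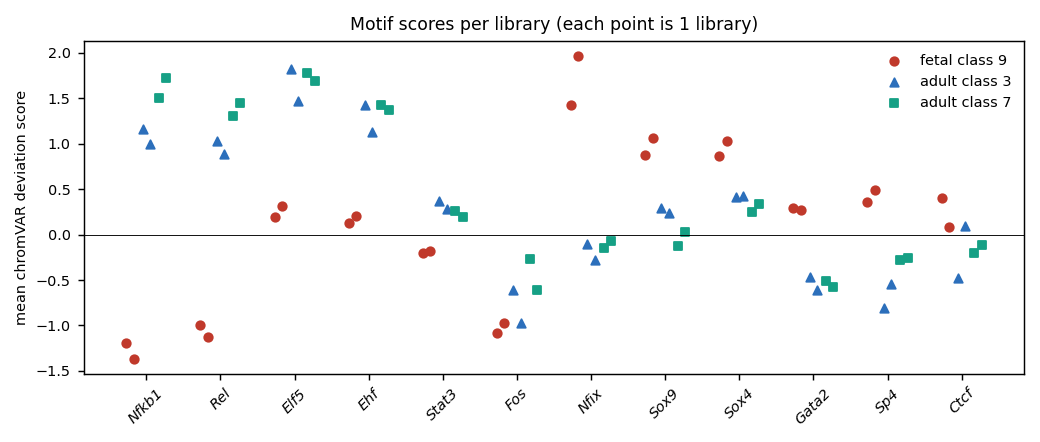
Mean chromVAR deviation score (vertical axis) of 12 motifs in fetal class 9, adult class 3 and adult class 7, with each point standing for 1 library. For Nfkb1 the fetal points lie at -1.19 and -1.36 and all adult points lie above 0, and for Nfix the order is turned, while the Fos points of class 9 and class 3 overlap.

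The gene lists are described by whole-list counts of gene spans, to be read beside the 7.73% and 8.04% of all gene spans that were called higher in fetal and in adult. A list's count says nothing particular to it beyond that. Gene spans that overlap share their reads, and reads were counted without strand.

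Of 10 luminal progenitor genes 5 were called lower and 1 higher in fetal nuclei, with a median log2 difference of -0.46 against 0.00 over all spans. Kit, the stem cell factor receptor, had 46.5 and 72.6 CPM in fetal and 181 and 188 in adult libraries, a log2 difference of -1.58 ± 0.16 (SE, edgeR adjusted p = 7.4e-07). Both adult libraries lay far above both fetal ones. Itga2, an integrin used to sort progenitors, had 78.0 and 83.4 CPM against 198 and 153. Cd14, a receptor for bacterial endotoxin, had 24.4 and 16.8 against 47.9 and 44.7. Aldh1a3, which makes retinoic acid, moved the other way, at 152 and 132 CPM in fetal and 86.8 and 70.5 in adult libraries (log2 difference 0.84 ± 0.14 SE, edgeR adjusted p = 0.00031). Elf5 itself, whose motif score differed so clearly, was not called at its gene span (66.3 and 62.0 CPM against 78.2 and 84.6, edgeR adjusted p = 0.13).

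Innate defence genes differed mostly in 1 direction: 8 of 11 tested were called lower in fetal nuclei and 0 higher, with a median log2 difference of -1.22. Against adult class 3 alone 4 were called lower. Lcn2, which binds bacterial siderophores, had 50.1 and 54.9 CPM in fetal and 192 and 140 CPM in adult libraries (log2 difference -1.65 ± 0.16 SE, edgeR adjusted p = 4.1e-07). C3 had 22.1 and 28.7 against 84.0 and 63.5, and the neutrophil chemokine Cxcl1 had 35.2 and 33.1 against 101 and 64.2. Of the list's 9 tested promoter regions, 6 were called lower in fetal and 0 higher, beside 4.63% and 4.32% of all promoter regions, among them Lcn2 with 112 and 107 CPM against 217 and 194. All 4 simple keratins, the structural proteins of luminal cells, were lower in fetal nuclei. Krt19 had 41.5 and 38.5 CPM against 86.8 and 98.5, Krt7 had 43.3 and 41.5 against 83.8 and 97.7, and Krt18 had 52.3 and 55.7 against 88.8 and 93.0. Krt8 was the remaining member, at -0.60.

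Of 10 tested milk protein and secretory genes, 3 were called lower and 0 higher in fetal nuclei: Xdh (-0.58) and Btn1a1 (-0.78), which form the milk fat globule, and Muc15 (-0.93). DESeq2 called 1 lower, and against adult class 7 alone 1 was called lower and 1 higher. The calls were lost without fetal replicate 1 or adult replicate 1 (Xdh), fetal replicate 2 or adult replicate 1 (Btn1a1), and fetal replicate 1 or adult replicate 2 (Muc15), with edgeR adjusted p = 0.089 for Xdh without fetal replicate 1, 0.089 for Btn1a1 without fetal replicate 2 and 0.12 for Muc15 without fetal replicate 1. Of 13 JAK-STAT genes 4 were called lower and 0 higher, and 1 against adult class 3 alone. Prlr, the prolactin receptor, had 43.7 and 70.0 CPM in fetal and 123 and 155 in adult libraries (log2 difference -1.24 ± 0.18 SE, edgeR adjusted p = 4.1e-05). Stat3 differed by -0.64 and Jak1 by -0.52, the latter with an adjusted p of 0.065 without fetal replicate 1. Of 10 hormone-sensing genes only Prlr and Prom1 were called, in opposite directions, and Prom1 (0.69) lost its call without fetal replicate 2 (edgeR adjusted p = 0.25) or adult replicate 1, by DESeq2 and against adult class 3 alone. Against class 7 alone 3 of these genes were called higher and 1 lower.

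Oncofetal genes, which are active before birth and in some tumours, went the other way: 7 of 10 were called higher in fetal nuclei and 0 lower, with a median log2 difference of 1.10. Against adult class 3 alone 3 were called. The 3 members with the smallest p encode the Igf2bp RNA-binding proteins. Igf2bp3 had 163 and 169 CPM in fetal and 61.2 and 58.2 in adult libraries (log2 difference 1.48 ± 0.14 SE, edgeR adjusted p = 2.4e-07). Igf2bp1 had 94.3 and 69.8 against 25.0 and 21.7, and Igf2bp2 had 221 and 232 against 111 and 84.6. In all 3 the stages did not overlap, which was also so for 56.9% of all tested gene spans. At the promoter of Igf2bp3 (chr6:49214098-49215097) the values were 47.1 and 53.7 CPM against 8.64 and 5.89. Of 54 distal regions nearest to listed genes, 21 were higher in fetal and 1 in adult nuclei, beside 9.89% and 11.9% of all distal regions.

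Genes of the embryonic mammary bud followed, with 6 of 15 called higher in fetal nuclei and 0 lower. The count was 3 without fetal replicate 2, 2 against adult class 3 alone and 10 against class 7 alone. Tbx3 had 207 and 226 CPM against 94.1 and 108 (log2 difference 1.10 ± 0.13 SE, edgeR adjusted p = 4.2e-06). Pthlh, the secreted signal by which the bud instructs its mesenchyme, had 69.9 and 93.0 against 35.3 and 29.2. Lef1, a Wnt effector, had 70.4 and 86.6 against 30.1 and 37.9. Of 6 SOX genes, Sox11 and Sox12 were called higher in fetal and 0 lower. Sox11 had 70.8 and 88.0 CPM against 13.4 and 16.2, a 5.41-fold difference (log2 difference 2.44 ± 0.21 SE), whereas Sox9 was not called, although its motif had the second largest difference among those higher in fetal.

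The NFI genes split. Nfib was higher in fetal nuclei, with 608 and 639 CPM against 430 and 467, and had 13 of 53 distal regions called higher in fetal and 3 in adult, beside 9.89% and 11.9% of all distal regions. Nfix was lower, with 350 and 348 CPM against 485 and 480 (log2 difference -0.47 ± 0.10 SE, edgeR adjusted p = 0.0017). The gene span of Nfix thus differed in the opposite direction to the score of the motif that bears its name. The direction for Nfib turned when nuclei with a read were counted in place of reads (-0.07, not called). Such a count cannot exceed the number of nuclei, 385 and 652 in fetal and 921 and 805 in adult libraries. The part of that limit in the turn was not tested. Of 12 AP-1 genes 4 were called lower in fetal nuclei and 0 higher, with 2 against adult class 3 alone and 7 against class 7 alone. Fosb had 180 and 151 CPM against 344 and 329, and Junb had 151 and 144 against 264 and 262. Fosl2 (-0.49) lost its call without fetal replicate 1 (edgeR adjusted p = 0.054).

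Among 14 Notch genes, 2 ligands were called higher in fetal nuclei and 3 other members lower. Jag2 had 60.4 and 52.5 CPM against 22.5 and 25.6, and the receptor Notch2 had 243 and 223 against 333 and 322. The target Hey2 had 42.8 and 56.5 against 97.4 and 95.8. The calls of Dll1 (0.57) and Heyl (-0.84) were lost without fetal replicate 2, with edgeR adjusted p = 0.24 and 0.070, and without adult replicate 1, and that of Heyl also without fetal replicate 1. DESeq2 called 1 Notch gene higher and 2 lower, and against adult class 3 alone 0 and 2 were called. Of 12 proliferation genes, Ccnd2, a cyclin of the G1 phase, had 59.5 and 63.2 CPM in fetal and 24.2 and 28.7 in adult libraries. Mki67 (0.63, higher in fetal) and Myc (-0.41, lower) were called as well, but not without fetal replicate 1 (edgeR adjusted p = 0.35 and 0.13). Mki67 was not called without either adult replicate, nor Myc without fetal replicate 2 or adult replicate 2. DESeq2 called only 1 of the 12, higher in fetal, and against adult class 3 alone edgeR called 0. The other 9 did not pass the test.

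**Figure D3:**
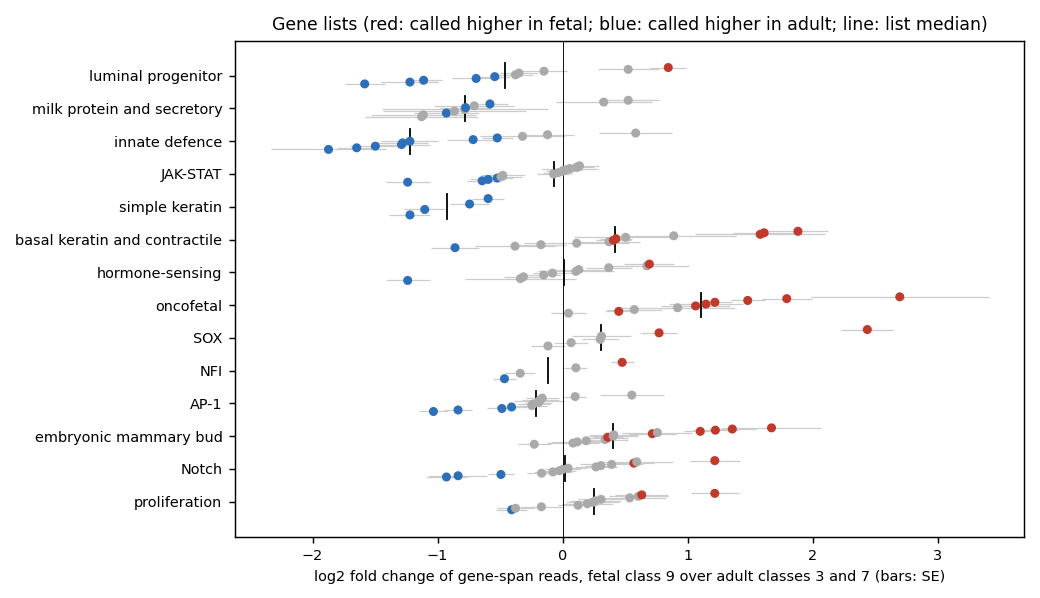
Log2 fold change of gene-span reads, fetal class 9 over adult classes 3 and 7, for each tested gene of 14 lists, with bars for the SE and black lines for list medians. All 4 simple keratins and 8 of 11 innate defence genes are blue and left of 0, and 7 of 10 oncofetal genes are red and right of 0.

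Over the whole table, the gene spans with the smallest p-values had varied roles. Fyn had 322 and 338 CPM in fetal and 110 and 117 in adult libraries (log2 difference 1.54 ± 0.11 SE, edgeR adjusted p = 4.8e-08). Bmp7, a bone morphogenetic protein, had 150 and 144 against 35.9 and 44.4. Ror2, a Wnt5a receptor, was 3.71-fold and Trim29, a gene of stratified and basal epithelia, 4.22-fold higher in fetal nuclei. Their size depended on the adult class. The log2 difference was 1.07 for Ror2 and 1.42 for Trim29 against class 3 alone, and 2.97 and 2.77 against class 7 alone. Ntn1, the guidance cue netrin-1, had 104 and 84.0 CPM in fetal and 325 and 315 in adult libraries (log2 difference -1.79 ± 0.13 SE, edgeR adjusted p = 3.1e-08). Trf had 27.1 and 16.4 against 113 and 111, in the same direction as its promoter region. Zc3h12a, an RNase that degrades cytokine mRNAs, Anxa1, an annexin that dampens inflammation, and Rnf125, a ubiquitin ligase of the RIG-I pathway, were 2.91- to 3.42-fold higher in adult nuclei. All 10 kept their calls under every alternative.

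Of 12 basal keratin and contractile genes 5 were called higher and 1 lower in fetal nuclei. Without fetal replicate 1, without fetal replicate 2, by DESeq2 and against adult class 3 alone the counts were 2 and 1. Krt14 had 59.5 and 49.3 CPM against 18.1 and 11.2 (log2 difference 1.88 ± 0.24 SE, edgeR adjusted p = 1.4e-05), and Krt17 had 46.9 and 37.5 against 15.0 and 12.3. Both promoter regions of Krt14 were called, and the stronger one (chr11:100207509-100208508) had 61.8 and 55.8 CPM against 6.91 and 7.58. Mylk, the kinase that starts smooth muscle contraction, had 155 and 157 against 111 and 121, and its call was lost without any 1 of fetal replicates 1 and 2 or adult replicate 1 (edgeR adjusted p = 0.062, 0.12 and 0.14). Oxtr, the oxytocin receptor, was lower in fetal nuclei, with 29.3 and 36.1 CPM against 54.8 and 66.1.

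To see whether these differences were shared by the other epithelial layer, the stage difference of the luminal nuclei was tested against that of basal nuclei from the same libraries. The basal nuclei were class 4 in fetal (132 and 338 nuclei) and classes 1 and 8 in adult libraries (335 and 715). Of 8 basal markers 7 lay above the class median in class 4 and 8 in classes 1 and 8, and class 4 had in addition all 7 immune markers above the median, with the highest summed level of 14 classes (113 CPM). The part of that in the basal values was not tested. The difference of stage effects was called for 1043 of 17068 gene spans (6.11%) and for 1080 of 39688 distal regions (2.72%), in an edgeR fit with the library as a block that was added after the data were seen. Without the library block, 535 gene spans were called.

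All 9 called members of the 12 basal keratin and contractile genes had a stage difference more positive in luminal than in basal nuclei. Over all 17068 gene spans 624 were called in that direction and 419 in the other. The 8 basal markers used to check the classes are all on this list. The direction at these genes is therefore not independent of how the luminal and basal classes were told apart. In basal nuclei Krt14 had 61.0 and 67.5 CPM in fetal and 143 and 82.8 in adult libraries, and the luminal minus basal difference of the stage effect was 2.66 ± 0.32 (log2, SE, edgeR adjusted p = 2e-13). In the fetal libraries the luminal and basal levels of Krt14 lay near each other, and in the adult libraries they lay far apart. Krt17 had 76.6 and 46.2 CPM in fetal basal and 167 and 151 in adult basal nuclei. Krt5 was picked after its values were seen: it had 11.7 and 11.2 CPM in fetal luminal, 5.57 and 2.09 in adult luminal, 28.4 and 37.0 in fetal basal and 90.0 and 89.3 in adult basal nuclei. Its luminal difference rests on few reads and was lost without fetal replicate 1 or 2 and without adult replicate 2. By their means, all 3 genes were highest in adult basal nuclei, then fetal basal, then fetal luminal, and lowest in adult luminal nuclei.

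Kit, itself a marker used to check the classes, was the reverse. In basal nuclei it had 44.0 and 38.8 CPM in fetal and 13.7 and 15.8 in adult libraries, so it was lower in adult basal and higher in adult luminal nuclei. The difference of stage effects was -2.99 ± 0.33 (log2, SE, edgeR adjusted p = 6.8e-16). Ehf, an ETS factor of epithelia, and Krt8, a simple keratin, both picked after their values were seen, differed the same way, each by -0.94. The oncofetal list had 0 of 10 and the SOX list 0 of 6 called, and with 6.11% called over all gene spans such counts say nothing particular to these lists. Sox11 had 62.4 and 72.6 CPM in fetal basal and 12.01 and 12.6 in adult basal nuclei, a stage difference close to the luminal one (difference of effects -0.03 ± 0.39 SE). Igf2bp3 had 143 and 148 against 53.2 and 77.8. A missed threshold does not show that the layers changed alike. Basal nuclei had fewer reads, 971201 and 3108478 in fetal and 1615142 and 3994925 in adult libraries.

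**Figure D4:**
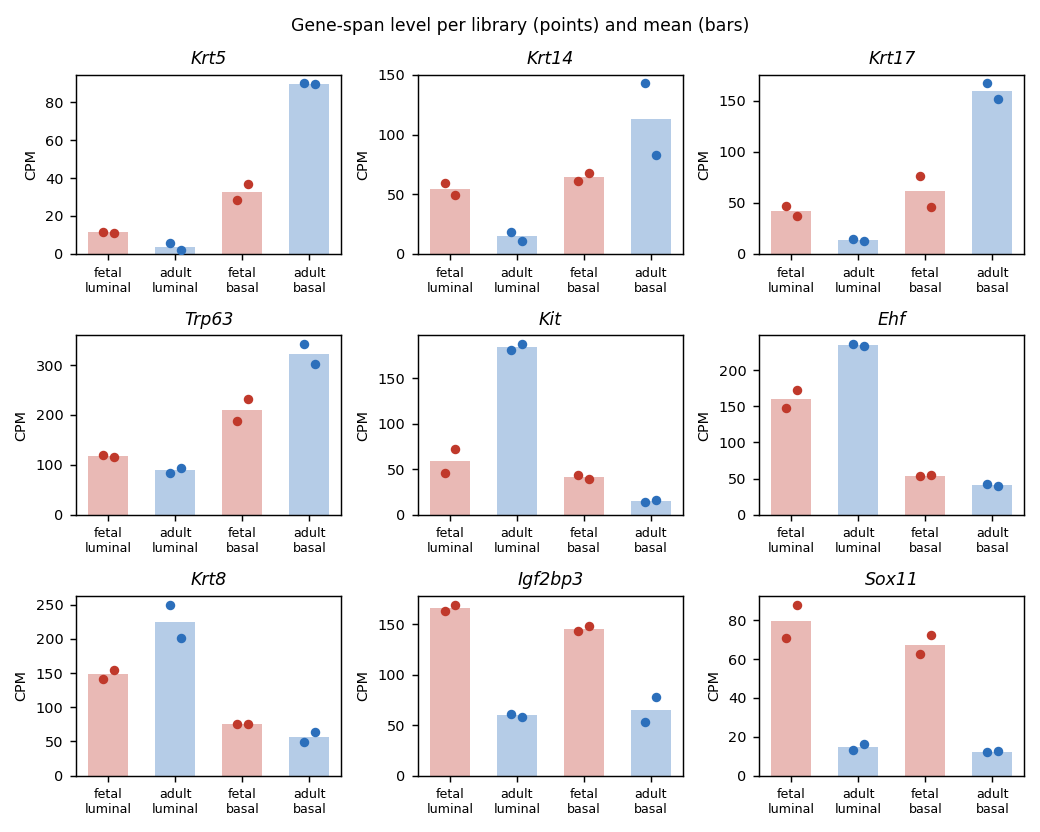
CPM over the gene span (vertical axes, each from 0) for 9 genes in fetal and adult luminal nuclei (classes 9, and 3 with 7) and basal nuclei (class 4, and 1 with 8). Points are the 2 libraries and bars their mean: Krt5, Krt14, Krt17 and Trp63 are lowest in adult luminal nuclei and highest in adult basal nuclei, Kit is highest in adult luminal nuclei, and Igf2bp3 and Sox11 are higher in both fetal layers.

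The distal regions showed both patterns. The Vps45 region had 88.5 and 96.9 CPM in fetal basal and 0 and 0 in adult basal nuclei, and the Nr2f1 region 98.7 and 82.7 against 5.87 and 5.40, so both were open in both fetal layers. The Rtp4 region had 61.2 and 69.7 in fetal and 35.2 and 34.2 CPM in adult basal nuclei, a smaller stage difference than in luminal nuclei (difference of effects 4.09 ± 0.72, log2, SE, edgeR adjusted p = 0.00016). The Klk14 region had 0 and 0 CPM in fetal and 3.91 and 0 CPM in adult basal nuclei. The Itpr1 region was at 0 in 3 of the 4 basal libraries and at 0.899 CPM in the other.

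The 2 adult classes did not stand equally far from the fetal one. Both comparisons use the same fetal libraries, so their values are given side by side. Against class 7 alone, 4340 gene spans were called, and against class 3 alone 1622, from fewer adult reads. Lcn2 had 50.7 and 55.1 CPM in fetal class 9, 66.2 and 69.6 in adult class 3 and 248 and 198 in adult class 7. Against class 3 alone its log2 difference was -0.38 (edgeR adjusted p = 0.26) and against class 7 alone -2.10. Cxcl1 followed Lcn2, with 35.6 and 33.3, then 42.2 and 55.8, then 127 and 70.3 CPM. Kit did not: it had 47.0 and 73.0 in class 9, 169 and 170 in class 3 and 182 and 200 in class 7.

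For several genes higher in fetal nuclei, class 3 lay between class 9 and class 7. Sox11 had 71.6 and 88.4 CPM in class 9, 24.8 and 23.2 in class 3 and 7.34 and 9.70 in class 7. Jag2 had 61.1 and 52.7, then 43.9 and 36.5, then 11.4 and 15.5. Lef1 had 71.2 and 87.0, then 43.9 and 57.5, then 22.4 and 19.9, and Ccnd2 followed with 60.2 and 63.5, then 43.9 and 36.5, then 13.9 and 21.3. Against class 3 alone the edgeR adjusted p was 0.20 for Jag2, 0.057 for Lef1 and 0.080 for Ccnd2, while all 3 were called against class 7 alone. Stat3 and Krt8 also lost their calls against class 3 alone. These genes were picked after their values were seen, and the order did not hold for Igf2bp3, with 58.8 and 56.4 CPM in class 3 and 60.8 and 58.7 in class 7. NF-kB scores were ordered alike, with Nfkb1 at 1.16 and 0.992 in class 3 and 1.498 and 1.72 in class 7, and Elf5 scores lay close in both classes, at 1.82 and 1.47 and at 1.78 and 1.69. Promoter shares of reads differed between these classes too, at 21.1% in class 3 and 27.0% in class 7 (means of 2 libraries), and the part of that in the gene values was not tested.

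**Figure D5:**
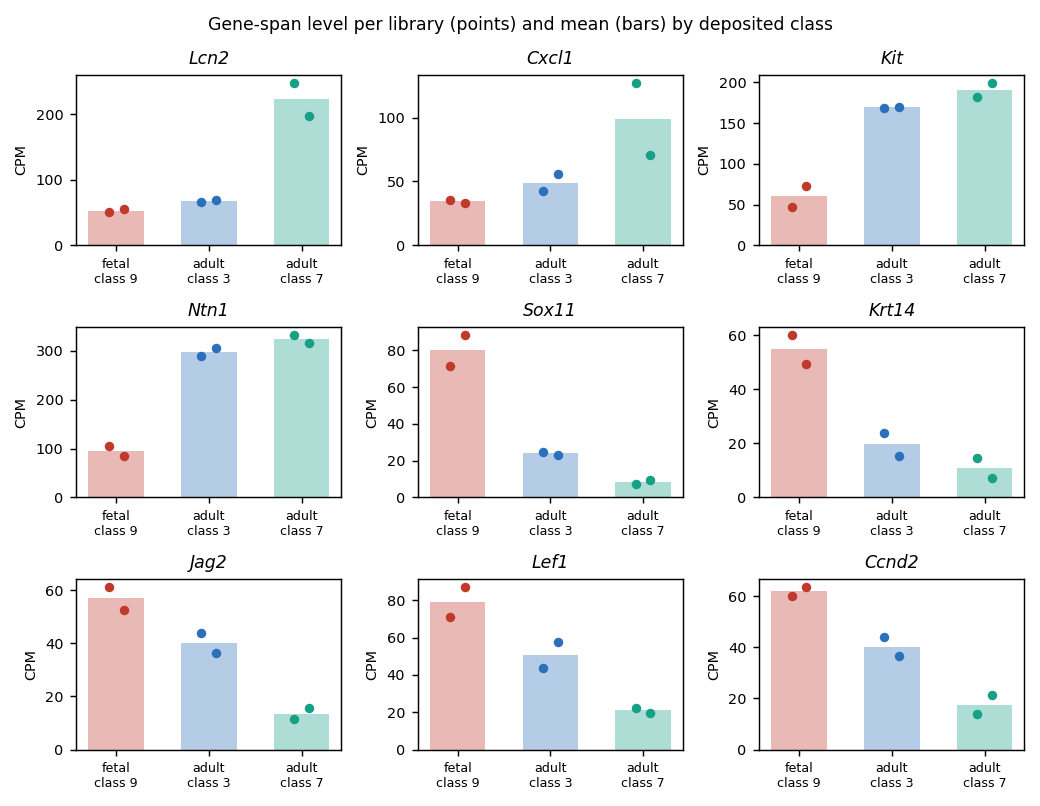
CPM over the gene span (vertical axes, each from 0) for 9 genes in fetal class 9, adult class 3 and adult class 7, with points for the 2 libraries and bars for their mean. Lcn2 and Cxcl1 are high in class 7, Kit and Ntn1 are high in both adult classes, and Sox11, Jag2, Lef1 and Ccnd2 fall from class 9 through class 3 to class 7.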

How the data were processed

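Per the labels' protocols, nuclei were tagmented in wells, pooled and sorted into a second set of barcoded wells. Each fetal library used 16 tagmentation wells and each adult library 32, so the number of wells cannot be told apart from stage. Bowtie2, MACS2 and bedtools and the build mm10 are named in the submitters' processing notes, with no versions used here. The deposited read positions were counted per nucleus here, so the count unit is reads of listed barcodes that overlap a 1000-base region of the authors' lists by at least 1 base, without any shift, and the deposited count of reads per nucleus equalled that of its barcode. Motif values are the deposited chromVAR deviation score per nucleus, and the co-accessibility score per pair is the authors' Cicero value. Class numbers are the authors', and no doublet caller was run. The deposited gene accessibility table has 7846 columns that name no sample, and it was not used.

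Reads were summed per library, since nuclei are not replicates. Features averaging 10 or more reads a library were tested with edgeR 4.0.16 (TMM scaling, quasi-likelihood test, Benjamini-Hochberg adjusted p under 0.05), motif means per library with limma 3.58.1, and DESeq2 1.42.0 was an alternative. CPM is relative to the TMM-scaled reads in tested features. An SE in log2 is the difference over the square root of F, not an SE of the fit. Gene spans came from RefSeq (GRCm38.p6) with 2000 bases added on each side. Named regions had the smallest p in each direction among called ones without overlap, 8 per direction (5 for gene spans, the 6 largest differences for motifs), 1 per gene, and 3 members per direction of each list were named. Distal sequences were not analysed here. The members, lists and rules were chosen with earlier results of these data known. Equal replicate numbers are not stated to share a litter or day, so the p-values measure the spread between libraries of a stage. The edgeR test was checked on simulated data: with 200 features changed 4-fold, it called 44.0% of distal regions, 89.5% of promoter regions and 97.5% of gene spans. More features were called in the real data than were changed there, so these shares do not measure recovery in the real data.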

Additional observations from a re-analysis of the deposited data

Results flagged for a closer look

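The stage difference was set against that of basal nuclei of the same libraries (edgeR with the library as a block, fetal over adult, luminal minus basal, log2), and the following results differed between the layers. More positive in luminal nuclei were Krt17 at 3.08, Trim29 at 2.76, Krt14 at 2.66, Bmp7 at 2.06, Jag2 at 1.84, Fyn at 1.31, Mylk at 1.30, Oxtr at 1.29, Ror2 at 1.22, Pthlh at 0.94, Dll1 at 0.79, Nfix at 0.64 and Tbx3 at 0.62. More negative in luminal nuclei were Kit at -2.99, Rnf125 at -2.18, Trf at -2.18, Btn1a1 at -1.84, Ntn1 at -1.39, Lcn2 at -1.31, Prlr at -1.16, Anxa1 at -0.99, Zc3h12a at -0.97, Itga2 at -0.93 and Fosb at -0.84. Among named distal regions, those near Rtp4 (4.09) and Trhde (3.88) and inside Tiam1 (2.89) and Ccdc192 (2.00) had a stage difference more positive in luminal nuclei. Without the library block the edgeR adjusted p was 0.052 for Fosb, 0.18 for Tbx3, 0.092 for Pthlh and 0.11 for Dll1. Krt14, Mylk, Oxtr, Kit and Lcn2 were also among the markers used to check the classes.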

How the results depend on the processing

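Of 11066 called distal regions, 1321 promoter regions and 2740 gene spans, DESeq2 called 6866, 490 and 1467. With adult class 3 alone the totals called were 3336, 341 and 1622, of which 3113, 270 and 1157 were among the main calls. With class 7 alone the totals were 9974, 1512 and 4340, of which 8381, 1034 and 2498 were among them. Which direction had more calls was not stable except for distal regions, where adult led in all settings. Fetal calls made up 43.1% (without fetal replicate 2) to 58.9% (class 7 alone) of promoter calls, 42.2% (class 3 alone) to 55.2% (class 7 alone) of gene span calls and 40.6% (without adult replicate 2) to 56.2% (class 3 alone) of motif calls. Total-read scaling gave 1479 gene spans higher in fetal and 1286 in adult, against 1343 and 1397. Nuclei at or above the median depth gave 6361 distal and 449 promoter calls. A mean of at least 50 reads, which tests fewer regions, gave 2391 and 523. Leaving out 1 library gave 7740 to 10509 distal, 695 to 899 promoter and 1401 to 2478 gene span calls, and 125 to 243 motif calls, of which 124 to 233 were among the 253. The fewest gene spans were called without fetal replicate 2, and the fewest promoter regions and motifs without adult replicate 1. Without adult replicate 2, 771 promoter regions and 165 motifs were called, and without fetal replicate 2, 764 promoter regions. With the replicate block, 10848 distal regions, 1311 promoter regions, 3816 gene spans and 246 motifs were called. Samples with equal numbers had deviations that correlated weakly (at -6.4e-05 for distal regions, 0.037 for promoter regions, 0.13 for gene spans and 0.052 for motifs). With 2 pairs and no label on a shared litter or day, whether the numbers pair the samples was not shown. The luminal against basal test called 535 gene spans without the library block and 1043 with it. Read midpoints in place of overlap moved the promoter shares to 21.8% (fetal) and 22.9% (adult) and the distal shares to 38.4% and 38.4%. The adult promoter share was 21.1% in class 3 and 27.0% in class 7. Among features named here, each counted once per setting, 1136 values kept direction and call, 60 lost the call, and Nfib reversed, at -0.070 when nuclei with a read were counted. Many of these features were picked for small p-values or large differences in the same data. Their counts therefore do not describe the stability of all calls. The count of nuclei with a read cannot exceed the number of nuclei. Where no value shows a cause, the cause was not tested. Uncalled distal regions had a median of 18.5 reads per library and uncalled promoter regions 61.8. The part of depth in what was called was not tested.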
